A study of Mus musculus with 38 samples.

Results

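The genes described here are 7 cell cycle brakes and p53 pathway genes chosen by name: *Cdkn2a*, *Cdkn2b*, *Cdkn1a*, *Cdkn1b*, *Trp53*, *Mdm2* and *Ccng1*. They are 7 of the 35976 genes in the bulk RNA-seq time course table, of the 37108 in the bulk table of factor sets and of the 20695 in the single-cell table, and each of the 7 was present and above 1 FPKM in every bulk library. The study drove mouse embryonic fibroblasts (MEFs, taken on embryonic day 13.5) out of their identity with retroviral factors and asked what BMP4, a morphogen of the TGF-beta family, and the NuRD-recruiting end of SALL4 do to the outcome. Once infected, the cells were moved to the chemically defined medium iCD3, which contained vitamin C, mLIF, bFGF, CHIR99021, the DOT1L inhibitor SGC0946, an LSD1 inhibitor and Y27632, so time and medium cannot be told apart in comparisons with the day 0 library. The series has 23 bulk RNA-seq, 2 single-cell RNA-seq, 9 ATAC-seq and 4 Cut&Tag samples.

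JGES denotes *Jdp2*, *Glis1*, *Esrrb* and *Sall4* delivered together over 2 days of infection according to the labels, JGE the set without *Sall4*, JGEO the set with *Oct4* in place of *Sall4*, and JGESO all of these factors. JGES cells were sampled at day 0 and, with (BMP4+, 10 ng/ml) or without (BMP4-) the ligand, at days 1, 3, 5 and 7, and the other sets at day 7 with and without BMP4. SALL4-WT and SALL4-delN12 cells received *Sall4* alone, without BMP4, as the intact protein or as a form lacking the N-terminal stretch that recruits the NuRD complex, and were sampled at days 1, 5, 9 and 11. ATAC-seq covered uninfected MEFs and both SALL4 forms at the same 4 days, Cut&Tag for SALL4 and H3K27ac covered both forms at day 6, and single cells came from JGES at day 7 with and without BMP4. Each condition had 1 deposited sample, and the Cut&Tag lists come from replicates that the authors merged, so no difference below has a replicate check and no test was made between conditions. Transduced cultures are mixtures of cells that took up different factor combinations, and in the bulk libraries fewer cells of a type and less RNA per cell cannot be told apart.

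*Cdkn2a* encodes p16Ink4a and p19Arf from separate first exons, and its neighbour *Cdkn2b* encodes p15Ink4b. The Ink4 proteins block CDK4 and CDK6 and so keep RB active, whereas p19Arf restrains MDM2, the ubiquitin ligase that removes p53. p53, the product of *Trp53*, switches on *Cdkn1a* (p21, a CDK inhibitor), *Ccng1* (cyclin G1) and *Mdm2* itself, while *Cdkn1b* encodes p27, a CDK inhibitor that is not a classical p53 target. The Ink4 and Arf proteins, p53 and p21 are known in fibroblasts as a barrier to reprogramming, which MDM2 opposes.

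The genes lie at 6 loci of the mouse genome (mm10). *Cdkn2a* (chr4:89274471-89294653) and *Cdkn2b* (chr4:89306299-89311039) are neighbours on the minus strand, *Cdkn1a* is at chr17:29090976-29100727 (plus) and *Cdkn1b* at chr6:134920401-134925513 (plus). *Trp53* is at chr11:69580359-69591873 (plus), *Mdm2* at chr10:117688875-117710758 (minus) and *Ccng1* at chr11:40748552-40755311 (minus). *Cdkn1a* is overlapped on the other strand by the annotated gene *AC167363.2*. The strand of read counting is not given in the sources used here, so reads of that pair may be mixed. The expression tables give 1 value for *Cdkn2a* and so do not separate p16Ink4a from p19Arf.

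A search of 2 kb on either side of each start site for a p53 response element, at most 1 of its outer bases off, found one at 0.606% of 32851 annotated start sites (199 of them) and at 2 of the 9 start sites of the 7 genes. Both are printed 5′ to 3′ from the RefSeq genome GRCm38.p6 with the 20 bases of the element in capitals, because they are the sequences through which a p53 target is recognised. The *Cdkn1a* element lies upstream of the gene, 51 to 32 bases before its upstream start, in the plus strand at chr17:29090908-29090967. The *Ccng1* element lies in an intron, 331 to 350 bases after the start, in the minus strand at chr11:40754916-40754975.

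Cdkn1a element: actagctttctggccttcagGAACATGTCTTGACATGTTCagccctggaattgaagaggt

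Ccng1 element: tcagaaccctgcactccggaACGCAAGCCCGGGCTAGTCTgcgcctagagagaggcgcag

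The accessibility data differed between these 2 sequences. None of the 9 ATAC-seq peak lists had a peak over the *Cdkn1a* element, whereas all 9 had one over the *Ccng1* element, as did all 4 Cut&Tag lists. A match to these letters is a description and not a measured site of p53 binding.

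The 250 bases before the start sites of *Cdkn2a*, *Cdkn2b* and *Mdm2* are printed next, because the differences between SALL4 forms and factor sets below concern these genes. Capitals mark matches on either strand to 5 short motifs: E2F (TTTNNCGC, in 4.28% of all 32851 promoters of this length), the GC box (GGGCGG, 32.7%), the cAMP response element (TGACGTCA, 1.55%), AP-1 (TGANTCA, 6.75%) and the TATA box (TATAAA, 12.4%). The upstream start of *Cdkn2a* is that of p19Arf (chr4:89294620-89294869, minus strand) and the downstream start that of p16Ink4a (chr4:89282193-89282442, minus strand). *Cdkn2b* is shown at chr4:89311033-89311282 and *Mdm2* at chr10:117710759-117711008, both in the minus strand.

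Cdkn2a upstream start: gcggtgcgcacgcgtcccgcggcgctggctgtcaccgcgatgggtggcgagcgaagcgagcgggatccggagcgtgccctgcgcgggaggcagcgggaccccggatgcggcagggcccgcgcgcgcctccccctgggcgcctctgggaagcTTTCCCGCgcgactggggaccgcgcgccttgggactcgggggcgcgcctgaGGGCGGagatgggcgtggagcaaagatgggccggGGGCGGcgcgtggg

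Cdkn2a downstream start: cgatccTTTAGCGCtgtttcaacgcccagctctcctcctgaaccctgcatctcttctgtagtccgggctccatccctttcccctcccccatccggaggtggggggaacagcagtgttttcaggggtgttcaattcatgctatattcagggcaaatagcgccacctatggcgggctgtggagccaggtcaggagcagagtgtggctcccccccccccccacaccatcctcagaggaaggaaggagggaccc

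Cdkn2b: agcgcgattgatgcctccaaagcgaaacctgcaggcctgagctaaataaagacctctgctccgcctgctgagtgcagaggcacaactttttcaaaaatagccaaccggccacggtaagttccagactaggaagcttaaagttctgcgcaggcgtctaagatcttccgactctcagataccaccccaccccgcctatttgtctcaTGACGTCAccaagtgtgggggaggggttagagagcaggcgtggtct

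Mdm2: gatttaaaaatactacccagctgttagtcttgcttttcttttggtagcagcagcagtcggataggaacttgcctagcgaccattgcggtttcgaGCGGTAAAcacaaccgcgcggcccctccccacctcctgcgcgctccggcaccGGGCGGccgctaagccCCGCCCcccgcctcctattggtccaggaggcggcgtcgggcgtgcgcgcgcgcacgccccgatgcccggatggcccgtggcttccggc

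Both *Cdkn2a* starts and *Mdm2* hold 1 E2F match each, and *Cdkn2b* holds 1 cAMP response element, 46 bases before its start, and no E2F or AP-1 match. The 250 bases of the p19Arf start contain 40 CpG dinucleotides, those of *Mdm2* 29, of *Cdkn2b* 12 and of p16Ink4a 7, against a median of 6 over all promoters. The 2 first exons of *Cdkn2a* thus start in sequence of very different CpG content.

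Levels over the 17 libraries of the time course are given as FPKM, a fragment density normalised to transcript length and library size, which can be compared between genes. *Cdkn1a* was the most abundant of the 7 by its median (397 FPKM), followed by *Ccng1* (193), *Cdkn2a* (62.7), *Trp53* (58.5), *Mdm2* (25.8), *Cdkn2b* (23.7) and *Cdkn1b* (9.37). With 1 library per condition, no spread is available to say which neighbours in this order differ. *Cdkn2a* and *Cdkn2b* varied most, with the highest library 23.5 and 17.1 times the lowest. *Cdkn1b* varied 7.97-fold, *Cdkn1a* 3.63-fold, *Trp53* 3.26-fold, *Ccng1* 3.10-fold and *Mdm2* 2.83-fold.

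**Figure D1:**
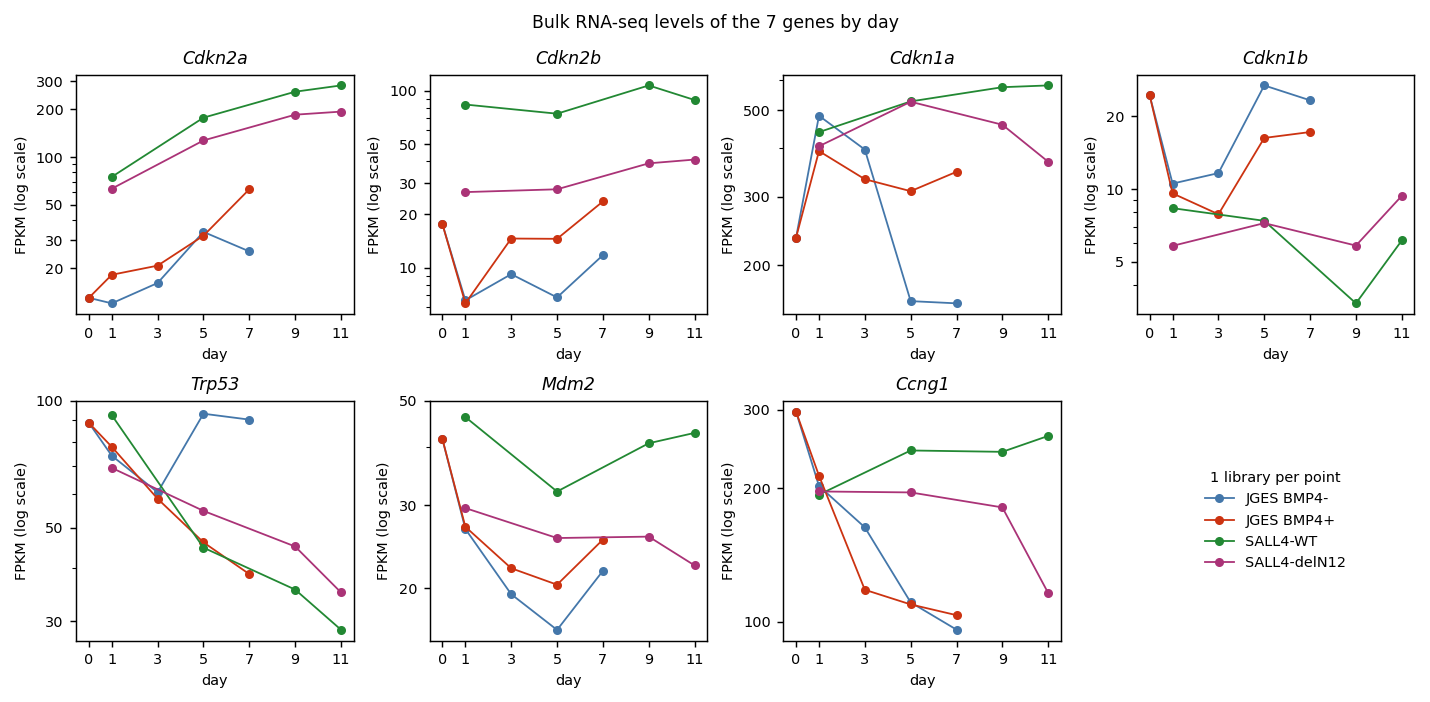
Level of each gene in FPKM (log scale) by day, 1 library per point, for JGES without and with BMP4 and for SALL4-WT and SALL4-delN12 cells without BMP4. *Cdkn2a* and *Cdkn2b* are highest in the SALL4-WT libraries, up to 282 and 107 FPKM, and *Trp53* ends lowest there, at 28.6 FPKM.

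The 2 Ink4 genes were lower in every JGES library than in any library of SALL4 alone, as were 5.20% of all genes at 1 FPKM or more in any of these libraries. For *Cdkn2a* the gap was narrow, 62.7 FPKM in the highest JGES library and 63.2 in the lowest of SALL4 alone. The sampled days differed in part between these cultures. The 6 fibroblast markers summed to between 125 and 1107 FPKM in JGES and between 812 and 2064 with SALL4 alone. The part of days and cell makeup in this separation was not tested. *Cdkn2a* was 13.01 FPKM at day 0, 12.01, 16.1, 33.8 and 25.5 at days 1, 3, 5 and 7 without BMP4, and 18.2, 20.7, 32.0 and 62.7 with BMP4. *Cdkn2b* was 17.6 FPKM at day 0, 6.53, 9.18, 6.78 and 11.8 without BMP4, and 6.28, 14.6, 14.5 and 23.7 with BMP4. Both genes reached their highest JGES level at day 7 with BMP4, apart from which no JGES library exceeded 33.8 FPKM for *Cdkn2a* or 17.6 FPKM for *Cdkn2b*.

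*Cdkn1a* was 236 FPKM at day 0, 485, 397, 162 and 160 without BMP4, and 393, 333, 310 and 348 with BMP4. It thus stood above its day 0 level at day 1 in both arms, and from day 5 lay below it without BMP4 and above it with BMP4. *Cdkn1b* ran the other way over the first days, from 24.4 FPKM at day 0 to 10.5, 11.6, 26.8 and 23.3 without BMP4 and to 9.60, 7.87, 16.3 and 17.2 with BMP4.

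*Trp53* was 88.7 FPKM at day 0, 74.1, 60.6, 93.2 and 90.2 without BMP4, and 77.8, 58.5, 46.1 and 38.8 with BMP4, so the arms parted after day 3. Its targets did not share that order. *Cdkn1a* parted after day 3 as well but was the higher with BMP4, and *Mdm2* and *Ccng1* differed less between the arms. *Mdm2* was 41.4 FPKM at day 0, 26.7, 19.4, 16.3 and 21.8 without BMP4, and 27.02, 22.1, 20.4 and 25.4 with BMP4. *Ccng1* was 297 FPKM at day 0, 202, 163, 110 and 95.9 without BMP4, and 213, 118, 109 and 103 with BMP4, lower than day 0 in all 8 later libraries of both arms.

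To ask how far BMP4 moved these genes in JGES, differences were taken as log2(FPKM + 1) with BMP4 minus without at the same day, and a gene was counted as changed where it moved at least 2-fold (1 on this scale). Of the genes at 1 FPKM or more in either library, 9.48% were past this fold at day 1, and the share was 15.8%, 22.0% and 24.1% at days 3, 5 and 7. None of the 7 genes was past it at days 1, 3 or 5, and 3 were at day 7. *Cdkn2a* was higher by 1.27 and *Cdkn1a* by 1.12, and *Trp53* fell by 1.20, while *Cdkn2b* was higher by 0.95, just short of the fold.

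The day 5 count is close to the line. *Cdkn2b* differed by 0.999, *Trp53* by -0.999 and *Cdkn1a* by 0.93 at day 5, against a median of -0.18 over all genes tested, and scaling the libraries by the median ratio brought *Cdkn2b* to 1.16 and *Cdkn1a* to 1.10. *Cdkn2a* differed by -0.08 at day 5 and by 1.27 at day 7. *Mdm2* (0.21) and *Ccng1* (0.11) differed little at day 7, when the median of all genes was -0.14.

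Markers of other cell types moved with the same comparison. At day 7 the 6 pluripotent markers summed to 814 FPKM without BMP4 and 28.3 with it, the 6 fibroblast markers to 140 and 784 FPKM, and the 6 primitive endoderm markers to 71.8 and 156 FPKM. All 6 genes of each list were above 0 in both libraries. The 6 mitotic genes summed to 351 FPKM without BMP4 and 150 with it. The part of these shifts in cell makeup and division in the differences of the 7 genes was not tested in bulk, and the single-cell data below give the levels within cell types.

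The wider pathway can be set beside the 7 genes through lists of related genes, each read against the shares of all genes above. Of the 6 mitotic genes, 5 fell at day 5 (median -1.51) and 5 at day 7 (median -1.21), led at both days by *Ccnb1*, the mitotic cyclin B1 (82.5 to 21.4 FPKM at day 5). In the single-cell data below, none of the 6 was lower by the fold with BMP4 within the cell types compared at day 7. Their median was -0.45 in the intermediate state, 0.92 in endothelial cells and 1.12 in ParE. The median gene was higher by 0.52, 0.52 and 0.56 in these types, so the mitotic genes stood below it in the intermediate state. Of the genes of the senescence secretory list at or above 1 FPKM, 7 of 10 rose at day 5 and none fell (median 1.44). The rises included *Igfbp7* (42.3 to 338 FPKM) and *Igfbp5*, which encode secreted binding proteins. At day 7 the counts for this list were 4 up and 1 down of 9. *Igfbp7* and *Igfbp5* are also made by fibroblasts, whose 6 markers summed to 125 FPKM without BMP4 and 568 with it at day 5, when the 6 pluripotent markers summed to 389 and 1.78 FPKM with *Dppa5a* and *Dppa3* at 0 with BMP4. Their part in the result was not tested.

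*Cdkn1a* apart, few p53 targets were past the fold under BMP4. Of the 26 on a list without the 7 genes, 25 were tested at day 5, of which none rose and 1 fell (*Tigar*), and all 26 at day 7, when *Perp* rose and *Bbc3* (PUMA) and *Ephx1* fell, with medians of -0.15 and -0.24 beside -0.18 and -0.14 for all genes. Among 10 genes that act on p53, 4 fell at day 5 and 2 at day 7, with no rise on either day. Of all genes, 22.0% and 24.1% were past the fold on these days. *Sirt1*, a deacetylase of p53, went from 9.98 to 2.23 FPKM at day 5, and *Chek1*, the checkpoint kinase, from 7.88 to 2.77 FPKM. Of 18 genes that control the *Cdkn2a* locus, 4 rose and none fell at day 5, a count close to the 22.0% of all genes past the fold. These included the T-box repressors *Tbx3* (14.7 to 58.7 FPKM) and *Tbx2*, and *Id1*, a BMP-responsive gene (75.7 to 243 FPKM). At day 7 *Id1* and *Tbx3* rose, and *Ezh2* (26.4 to 10.1 FPKM) and *Suz12* (74.0 to 31.8 FPKM), subunits of the Polycomb complex that silences the locus, fell. The share of all genes past the fold was then 24.1%. In the single-cell data below, no tested regulator of p53 or of the *Cdkn2a* locus was lower by the fold with BMP4 within the cell types compared. The median gene was itself higher by 0.52 to 0.56 there.

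Within each arm, day 7 was also set against the shared day 0 library. That library already held RNA of delivered factors (*Sall4* 650, *Jdp2* 375 and *Esrrb* 240 FPKM), so it does not stand for uninfected MEFs. Without BMP4, 32.5% of genes tested were past the fold and 1 of the 7 genes was, *Ccng1*, which fell by 1.62, with *Cdkn2a* at 0.92 and *Mdm2* at -0.90. The median of all genes was 0.26 in this comparison, and after median ratio scaling *Mdm2* was also past the fold. With BMP4, 17.5% of genes tested rose by the fold and 9.47% fell, as did 1 and 2 of the 7. Day 7 minus day 0 was 2.19 for *Cdkn2a*, -1.51 for *Ccng1* and -1.17 for *Trp53*, with a median of 0.06 over all genes. The 6 fibroblast markers summed to 1107 FPKM at day 0, and to 140 without and 784 with BMP4 at day 7. The 6 pluripotent markers, all at 0 at day 0, summed to 814 and 28.3 FPKM in the same order. Their part in these changes was not tested.

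The factor sets were compared at day 7 in their own table, in which the JGES columns hold the time course values times 0.975 (BMP4-) and 0.978 (BMP4+) for every one of the 7 genes and are therefore the same libraries. *Glis1*, a factor of every set by the labels, was at most 1.13 FPKM in every JGE, JGES, JGEO and JGESO library of both tables. With SALL4 alone it was at most 0.310 FPKM. Its RNA was thus not seen at the level of the other delivered factors. Whether RNA of a delivered *Glis1* copy is counted in these FPKM values is not known, and the label names are kept here. *Jdp2* was at least 228 FPKM and *Esrrb* at least 109 FPKM in the libraries of these sets. *Sall4* was at most 6.23 FPKM in the JGE libraries and 174 to 273 FPKM in JGES and JGESO, with 28.9 and 30.3 FPKM in JGEO. *Pou5f1* (Oct4) was 370 to 1599 FPKM in JGEO and JGESO and at most 0.0970 FPKM in JGE. In JGES, which received no *Oct4*, *Pou5f1* was 224 FPKM without and 5.94 FPKM with BMP4, and the table does not separate viral from endogenous transcripts. The labels give total RNA for the JGES libraries and polyA RNA for the other sets, with the same preparation kit, so this difference and the factor set cannot be told apart where JGES is compared with another set.

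*Cdkn2a* was 110 FPKM in JGE, 24.8 in JGES, 83.5 in JGEO and 104 in JGESO without BMP4, and 71.6, 61.3, 113 and 125 in the same order with BMP4. JGES without BMP4 was thus the lowest of the 8 libraries. *Cdkn2b* was 68.2, 11.5, 24.5 and 10.6 FPKM without BMP4, and 32.0, 23.2, 23.2 and 23.9 with BMP4. *Cdkn1a* was 706, 156, 413 and 257 FPKM without BMP4, and 534, 340, 468 and 343 with BMP4, so JGE stood highest for both of these genes in either arm.

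*Cdkn1b* was 9.56 FPKM in JGE, 22.7 in JGES, 24.6 in JGEO and 22.4 in JGESO without BMP4, and 14.1, 16.8, 19.6 and 26.5 with it. *Trp53* was 46.0, 88.0, 100 and 104 FPKM without BMP4, and 58.1, 37.9, 93.0 and 74.5 with it. Among the sets without BMP4, JGE was lowest for both of these genes and highest for *Cdkn2b* and *Cdkn1a*. *Mdm2* was 34.0, 21.2, 8.47 and 2.78 FPKM without BMP4, and 17.6, 24.8, 13.8 and 3.72 with it. *Ccng1* was 215, 93.5, 31.5 and 11.8 FPKM without BMP4, and 82.9, 101, 56.2 and 11.7 with it. Both p53 targets were therefore lower in the JGESO libraries than in any other, as were 24.5% of all genes at 1 FPKM or more in any library of the table, whereas *Trp53* was highest in JGESO without BMP4.

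**Figure D2:**
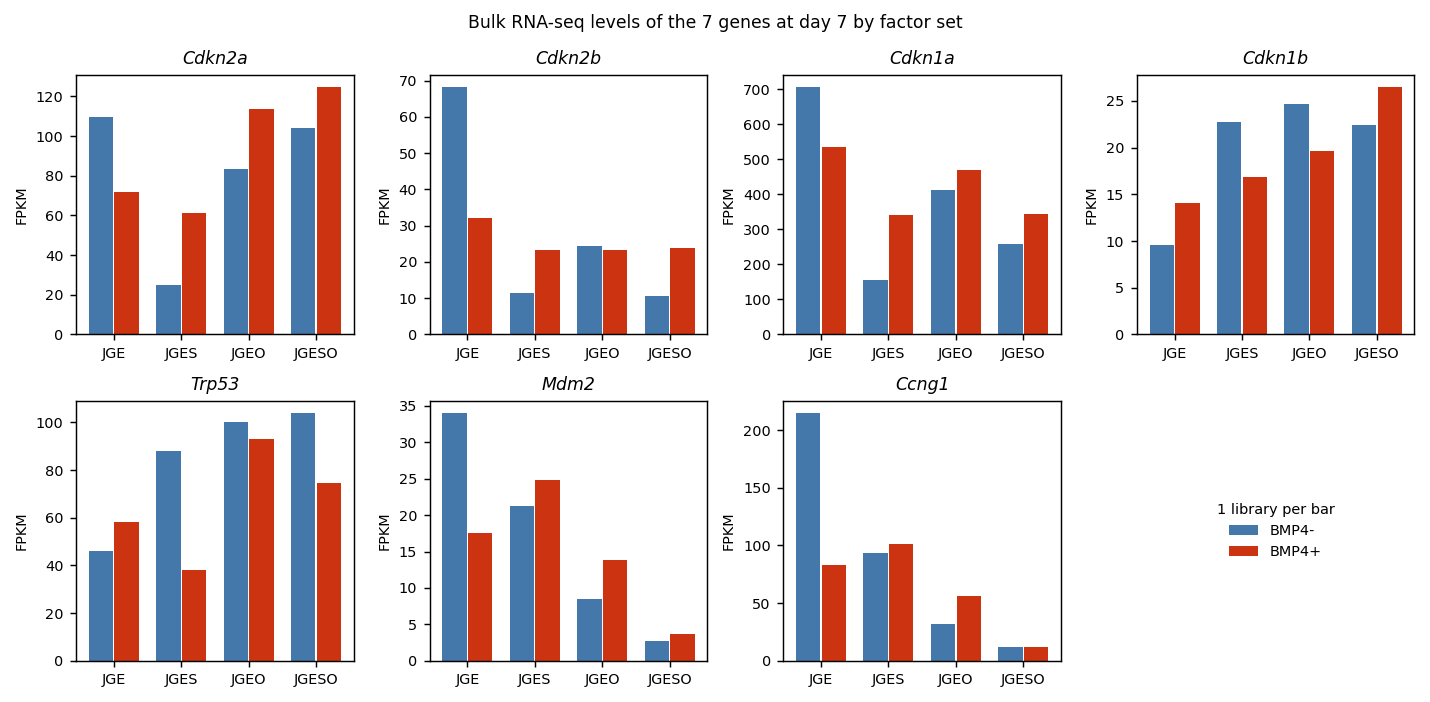
Level of each gene in FPKM at day 7 by factor set, 1 library per bar, without (blue) and with (red) BMP4. *Mdm2* and *Ccng1* are lowest in the 2 JGESO libraries (2.78 and 3.72 FPKM, 11.8 and 11.7 FPKM), and *Cdkn2b* and *Cdkn1a* are highest in JGE.

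The response to BMP4 differed in size and direction between the sets. In JGE, 9.06% of genes were past the fold and 2 of the 7 were, *Cdkn2b* (fell by 1.07) and *Ccng1* (fell by 1.36), with *Mdm2* at -0.92. In JGEO, 4.21% were and none of the 7, the nearest being *Ccng1* at 0.82. In JGESO, 8.81% were and 1 of the 7, *Cdkn2b*, which rose by 1.10. *Cdkn2a* differed by -0.61 in JGE, 0.44 in JGEO and 0.26 in JGESO, beside 1.27 in JGES. The differences between these responses were not tested. With BMP4 the fibroblast marker sum went from 1147 to 697 FPKM and the endothelial one from 16.9 to 47.3 FPKM in JGE, the pluripotent one from 242 to 427 FPKM in JGEO, and the placenta-like one from 264 to 467 FPKM and the pluripotent one from 366 to 231 FPKM in JGESO. Their part in these responses was not tested.

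The sets were then compared with each other without BMP4. Between JGES and JGE, 37.0% of all genes tested were past the fold and 5 of the 7 were. *Cdkn2a* fell by 2.10, *Cdkn2b* by 2.47, *Cdkn1a* by 2.18 and *Ccng1* by 1.19, *Cdkn1b* rose by 1.17, and *Trp53* differed by 0.92. The 3 largest falls lay between the 2.26th and 3.70th percentile of all genes. In the same comparison all 6 mitotic genes rose (median 2.78) and 9 of the 13 senescence secretory genes tested fell with no rise (median -2.41), among them *Igfbp7* (1711 to 52.0 FPKM) and *Ccl2* (37.0 to 2.30 FPKM), against a median of 0.06 over all genes. Of the 10 regulators of p53, 8 rose and none fell (median 1.41). Of 18 regulators of the *Cdkn2a* locus 9 rose and 4 fell, with *Suz12* (12.2 to 72.1 FPKM) and *Ezh2* (5.04 to 25.8 FPKM) leading the rises. Of 26 p53 targets 1 rose and 4 fell. The 6 pluripotent markers summed to 0.239 FPKM in JGE and 794 in JGES in these libraries, the 6 fibroblast markers to 1147 and 136 FPKM, and the 6 macrophage markers to 49.1 and 5.42 FPKM, with *Ptprc*, *C1qa*, *Csf1r* and *Fcer1g* at 0 in JGES. Their part in the result was not tested.

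Between JGEO and JGE, both labelled polyA RNA, 22.1% of genes were past the fold and 5 of the 7 were. *Ccng1* fell by 2.73, which is the 0.318th percentile of all genes, *Mdm2* by 1.89 and *Cdkn2b* by 1.44, while *Cdkn1b* rose by 1.28 and *Trp53* by 1.10. *Cdkn2a* differed by -0.39 and *Cdkn1a* by -0.77. Other p53 targets fell with *Ccng1* and *Mdm2*, 7 of 26 against 1 that rose, the largest falls being *Perp* (46.9 to 6.90 FPKM), *Trp53inp1* (29.4 to 5.07 FPKM) and *Fas* (4.39 to 0.601 FPKM). The median of this list was -0.22 and that of all genes 0.05. Of the mitotic genes 3 of 5 tested rose, and of the secretory genes 6 of 13 fell, with none moving the other way. The 6 pluripotent markers summed to 0.239 FPKM in JGE, where *Dppa5a*, *Tdgf1* and *Dppa3* were at 0, and to 242 FPKM in JGEO, the primitive endoderm markers to 18.9 and 44.6 FPKM and the macrophage markers to 49.1 and 22.0 FPKM. Their part in the result was not tested.

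With all factors present, JGESO against JGES, 49.5% of all genes were past the fold, so that about as many genes counted as changed as did not. *Cdkn2a* was higher by 2.03, *Mdm2* fell by 2.56 and *Ccng1* fell by 2.89, 3 of the 7 genes. This comparison carried a trend with transcript length. Genes in the shortest of 5 equal length classes had a median difference of 0.30 and those in the longest -0.93, and the longest transcript of *Cdkn2a* (895 bases) is in class 1, that of *Mdm2* (3145 bases) and *Ccng1* (3512 bases) in class 3. Measured against the median of their own length class, the 3 differences were 1.73, -2.53 and -2.86. In the same comparison 9 of the 10 regulators of p53 fell (median -2.01), *Mdm4* from 55.4 to 2.92 FPKM, and 4 of the 6 mitotic genes fell, *Top2a* from 98.1 to 6.05 FPKM, while *Ube2c* went from 97.7 to 134 FPKM and *Cdk1* from 26.2 to 28.0 FPKM. These list genes were not measured against their length class, so the part of the length trend in their differences was not tested.

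JGESO against JGEO, both labelled polyA RNA, had 28.2% of genes past the fold and 3 of the 7. *Mdm2* fell by 1.32, *Ccng1* by 1.35 and *Cdkn2b* by 1.13, against a median of -0.26 over all genes and of -0.05 to -0.55 from the shortest to the longest length class. Against their own length class they were -1.15, -1.17 and -1.08, and after median ratio scaling *Cdkn2b* was at -0.94, inside the fold. This comparison shares libraries with the ones before it, so the falls of *Mdm2* and *Ccng1* in it are not independent of theirs. The 6 primitive endoderm markers summed to 355 FPKM in JGESO, 44.6 in JGEO and 70.0 in JGES without BMP4, and the 6 placenta-like markers to 264, 32.1 and 82.4 FPKM, with *Elf5* at 0 in JGESO and JGES. The 6 fibroblast markers summed to 682, 879 and 136 FPKM in the same order, and the 6 pluripotent markers to 366, 242 and 794 FPKM. Their part in both comparisons of JGESO was not tested.

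With SALL4 alone, the Ink4 genes reached their highest levels. *Cdkn2a* was 75.0, 177, 258 and 282 FPKM at days 1, 5, 9 and 11 with SALL4-WT and 63.2, 127, 185 and 193 with SALL4-delN12. *Cdkn2b* was 83.7, 74.3, 107 and 88.8 FPKM with SALL4-WT and 26.7, 27.7, 38.9 and 40.9 with SALL4-delN12. The *Cdkn2b* levels of the 2 forms did not overlap across the 4 days, being lower with SALL4-delN12 as for 7.44% of all genes at 1 FPKM or more in any of these 8 libraries, and *Cdkn2a* was lower with SALL4-delN12 at each of them.

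*Cdkn1a* was 440, 528, 574 and 580 FPKM with SALL4-WT and 405, 527, 460 and 369 with SALL4-delN12. *Ccng1* was 193, 243, 241 and 262 FPKM with SALL4-WT and 196, 196, 181 and 116 with SALL4-delN12, and *Mdm2* 46.2, 32.1, 40.6 and 42.8 FPKM against 29.6, 25.6, 25.8 and 22.4, again without overlap. These 3 p53 targets were farthest apart at day 11. *Trp53* was 92.5, 44.8, 35.6 and 28.6 FPKM with SALL4-WT and 69.3, 54.8, 45.1 and 35.1 with SALL4-delN12, and so was lower with the deletion at day 1 and higher at the later days. *Cdkn1b*, the lowest of the 7, was 8.34, 7.39, 3.37 and 6.13 FPKM against 5.82, 7.23, 5.84 and 9.37.

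Read as SALL4-delN12 minus SALL4-WT, *Cdkn2b* was past the fold on each day and on the first 3 days was the single one of the 7 that was. At day 1 it fell by 1.61, when 9.81% of all genes were past the fold. On day 5 it fell by 1.39 (9.86% of all genes), on day 9 by 1.44 (11.8%) and on day 11 by 1.10 (13.1%), between the 2.02nd and 5.30th percentile of all genes. *Ccng1* joined it at day 11, when it fell by 1.17 and *Mdm2* was at -0.90. *Cdkn2a* differed by -0.24, -0.47, -0.48 and -0.54 on the 4 days and was inside the fold on each. *Sall4* itself was 549, 491, 518 and 290 FPKM with SALL4-WT and 809, 623, 971 and 428 with SALL4-delN12, higher with the deletion on each day. The 6 placenta-like markers, led by *Krt18*, summed to between 109 and 144 FPKM with SALL4-WT and between 517 and 660 with SALL4-delN12, with *Elf5* at 0 at days 1 and 5 of SALL4-WT. The 6 primitive endoderm markers summed to 14.7, 12.1, 15.6 and 19.4 FPKM with SALL4-WT and to 11.1, 15.4, 60.3 and 171 with SALL4-delN12, so they parted at days 9 and 11. *Sox17* was at 0 at days 5 and 9 of SALL4-WT and at day 1 of SALL4-delN12. The 6 fibroblast markers summed to 812, 1375, 1379 and 1452 FPKM with SALL4-WT and to 2064, 2050, 1901 and 1669 with SALL4-delN12. Their part in these differences was not tested. The SALL4 libraries of a form at different days come from the same kind of culture, and the labels do not say whether the days are separate infections.

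Genes of the senescence secretory list were lower with the deletion as well. Of those tested, 12 of 17 fell and 2 rose at day 1 (median -1.50), 9 of 14 fell and 1 rose at day 5, 7 of 14 fell and 1 rose at day 9, and 3 of 14 fell and 2 rose at day 11. *Cxcl1*, a neutrophil-attracting chemokine, was 148, 45.4, 66.8 and 57.3 FPKM with SALL4-WT and 10.4, 5.99, 7.51 and 13.04 with SALL4-delN12. *Ccl2*, a monocyte-attracting chemokine, was 1448 FPKM at day 1 with SALL4-WT and 240 with SALL4-delN12. The 6 macrophage markers summed to between 22.9 and 96.6 FPKM with SALL4-WT and between 129 and 301 with SALL4-delN12, all 6 above 0 in every library, so they were higher in the form in which the chemokines were lower. Their part in these differences was not tested.

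Of the 18 genes of the CDK inhibitor and RB list, 2 were higher with the deletion by the fold on each day, a brake and a cyclin, and *Cdk6* alone was lower, at day 1. Of all genes, 9.81%, 9.86%, 11.8% and 13.1% were past the fold over the 4 days, and the counts of this list were near those shares. *Cdkn1c* (p57) was 30.5, 15.7, 14.7 and 43.4 FPKM with SALL4-WT and 126, 81.3, 164 and 141 with SALL4-delN12, past the fold on all 4 days. *Ccnd1* (cyclin D1), the partner of the kinases that p15Ink4b inhibits, was 285, 163, 187 and 107 FPKM against 824, 386, 501 and 260. Of 26 p53 targets, 1, 3, 3 and 5 fell over the 4 days and 0, 1, 0 and 0 rose, beside the same shares of all genes. *Pmaip1* (NOXA) was 175, 209 and 180 FPKM at days 5, 9 and 11 with SALL4-WT and 51.1, 67.8 and 56.3 with SALL4-delN12. The mitotic genes were inside the fold at days 1 and 5, 1 of 6 was higher at day 9 and 3 of 6 were at day 11 (*Ube2c*, *Cdk1* and *Top2a*).

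From day 1 to day 11 of SALL4-WT, 20.2% of genes were past the fold and 2 of the 7 were, *Cdkn2a*, which rose by 1.90, and *Trp53*, which fell by 1.66. With SALL4-delN12, 15.0% were and 1 of the 7, *Cdkn2a*, which rose by 1.60, with *Trp53* at -0.96. All 6 mitotic genes fell over these days with SALL4-WT (median -2.00), their sum going from 219 to 35.4 FPKM, and 1 of 6 did with SALL4-delN12, whose sum went from 179 to 99.4 FPKM. The fibroblast markers ran differently, with sums of 812 FPKM at day 1 and 1452 at day 11 with SALL4-WT, and of 2064 and 1669 with SALL4-delN12.

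Chromatin at the start sites was read from the deposited peak lists, with a peak counted where any base of it lay within 2 kb of a start site. An ATAC-seq peak was present in all 9 libraries at 41.7% of 32851 start sites and at 8 of the 9 start sites of the 7 genes. The exception was the upstream start of *Cdkn1a*, which had none in any library, whereas the downstream start had one in each. MEFs before infection already had a peak at these 8 sites, with MACS scores from 278 at the p16Ink4a start to 3068 at *Ccng1*. The peak score is larger for a peak with a smaller p-value and also grows with depth.

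An H3K27ac peak was present with SALL4-WT at 37.8% of start sites and with SALL4-delN12 at 47.6%, and a SALL4 peak at 45.6% and 35.3%. Of the 9 start sites of the 7 genes, 7 had H3K27ac with SALL4-WT and 6 with SALL4-delN12, and 8 and 7 had SALL4. *Cdkn1a* had no H3K27ac peak at either start with either form. The nearest one lay 10892 bases from its upstream start with SALL4-WT and 7792 bases from it with SALL4-delN12, although *Cdkn1a* was the most abundant transcript of the 7.

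*Mdm2* was the one member with both peaks in SALL4-WT and neither in SALL4-delN12. Its H3K27ac peak had a score of 161 and its SALL4 peak one of 138. Loss of the first was seen at 1.25% of all start sites and loss of the second at 14.9%. Among start sites with the peak in SALL4-WT, these were 409 of 12419 for H3K27ac and 4890 of 14968 for SALL4. The nearest SALL4-delN12 peaks lay 32560 bases (H3K27ac) and 4489 bases (SALL4) from its start. The H3K27ac list of SALL4-delN12 was the longer one, with 45599 peaks against 19841, and the SALL4 lists held 67310 and 69475. In ATAC-seq, the *Mdm2* start was covered at day 11 by 1 peak from position -272 to position 1089 with SALL4-WT (score 1132), and by 3 separate peaks with SALL4-delN12 (highest score 279). The ratio of these scores, 0.247, was at the 0.939th percentile of all start sites with a peak in both, whose median was 0.701. At day 5 it was 0.283 (median 0.572), at day 9 0.732 (median 1.00) and at day 1 2.62 (median 1.15), so the gap was not present on every day. *Mdm2* RNA was lower with SALL4-delN12 on all 4 days, by 0.62, 0.32, 0.64 and 0.90 on the log2 scale, each inside the fold.

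**Figure D3:**
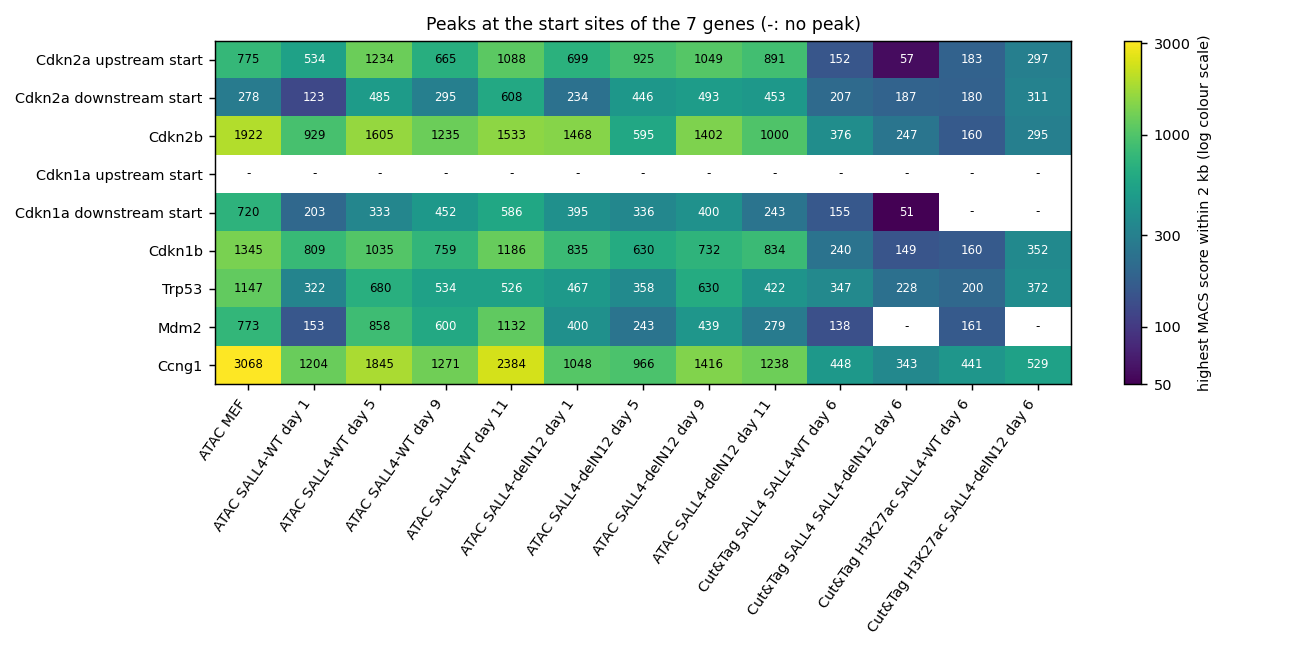
Highest MACS score (log colour scale, number in each cell) of a peak within 2 kb of each of the 9 start sites in the 9 ATAC-seq and 4 Cut&Tag peak lists; a dash marks no peak. The upstream start of *Cdkn1a* has no peak in any list, and *Mdm2* has SALL4 and H3K27ac peaks with SALL4-WT only.

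*Cdkn2b*, the member past the fold between the SALL4 forms on all 4 days, kept its peaks. Its SALL4 score was 376 with SALL4-WT and 247 with SALL4-delN12, and its H3K27ac score 160 and 295. The *Cdkn2a* starts had SALL4 scores of 152 and 57.4 (p19Arf) and of 207 and 187 (p16Ink4a), and H3K27ac scores of 183 and 297 and of 180 and 311. Over all start sites with a peak in both forms, the median ratio of SALL4-delN12 to SALL4-WT was 2.01 for H3K27ac and 0.712 for SALL4, so the H3K27ac scores of the 3 Ink4 and Arf starts, higher with the deletion, moved as most start sites did. The remaining SALL4 scores were 155 and 50.5 at the downstream start of *Cdkn1a*, 240 and 149 at *Cdkn1b*, 347 and 228 at *Trp53*, and 448 and 343 at *Ccng1*. With SALL4-delN12 the peaks at the p19Arf start and at *Cdkn1a* were thus under a score of 100, and 5 rather than 7 of the 9 start sites had a SALL4 peak at or above it, against 8 with SALL4-WT.

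In the single-cell data the 7 genes could be followed within the authors' cell types. The BMP4+ sample held 11335 cells with a median of 21205 unique molecular identifiers (UMIs) and the BMP4- sample 8685 cells with a median of 12738, and the samples shared 2 barcodes. Each cell type in each sample is 1 value, given as CPM, the UMIs of a gene over the summed cells scaled to a common total. The 95% exact Poisson intervals cover counting error only. Cells labelled ParE carried all 6 primitive endoderm markers at 10 CPM or more, with sums of 1308 CPM (BMP4+) and 919 CPM (BMP4-), and at most 77.9 CPM elsewhere. The label is kept here as deposited. Pluripotent cells had 7217 CPM of the pluripotent list, and endothelial cells 870 and 567 CPM of the endothelial list with 66.7 and 59.0 CPM of the macrophage list, led by *Tyrobp*. BMP4- cells of the other 3 types also had 288 to 872 CPM of the pluripotent list, led by *Dppa5a*, and BMP4+ types at most 23.9 CPM. Its part in the levels below was not tested.

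*Cdkn1a* and the Ink4 genes were highest in the intermediate state of the BMP4+ sample (7125 cells). *Cdkn1a* was 954 CPM there (949 to 958), against 259 in endothelial cells, 157 in ParE and 227 in placenta-like cells of the same sample, and against 377 in the intermediate state, 473 in endothelial cells, 78.8 in ParE and 203 in pluripotent cells without BMP4. *Cdkn2a* was 267 CPM (265 to 270) in that state, 163, 170 and 154 in the other BMP4+ types, and 127, 93.8, 99.5 and 71.4 in the BMP4- types in the order above. *Cdkn2b* was 32.0 CPM (31.1 to 32.9), then 6.67, 6.92 and 23.9, and 11.2, 4.99, 3.70 and 5.53. No interval of another type reached the intermediate BMP4+ value for these 3 genes.

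*Trp53* had another order. It was highest in BMP4+ endothelial cells, 154 CPM (150 to 158), and in BMP4- pluripotent cells, 150 CPM (146 to 155), whose intervals overlap. It was 78.0 CPM in the intermediate state, 80.7 in ParE and 96.6 in placenta-like cells with BMP4, and 76.7, 83.0 and 47.1 in the intermediate, endothelial and ParE cells without it. *Mdm2* was 88.7, 68.5, 45.8 and 76.1 CPM in intermediate, endothelial, ParE and placenta-like cells with BMP4, and 41.8, 63.5, 38.6 and 46.3 in intermediate, endothelial, ParE and pluripotent cells without it. *Ccng1* was 170, 106, 75.3 and 120 CPM, and 177, 183, 87.8 and 97.2. *Cdkn1b* was scarce throughout, 17.4, 17.6, 27.7 and 22.1 CPM, and 6.48, 9.03, 12.7 and 5.66.

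**Figure D4:**
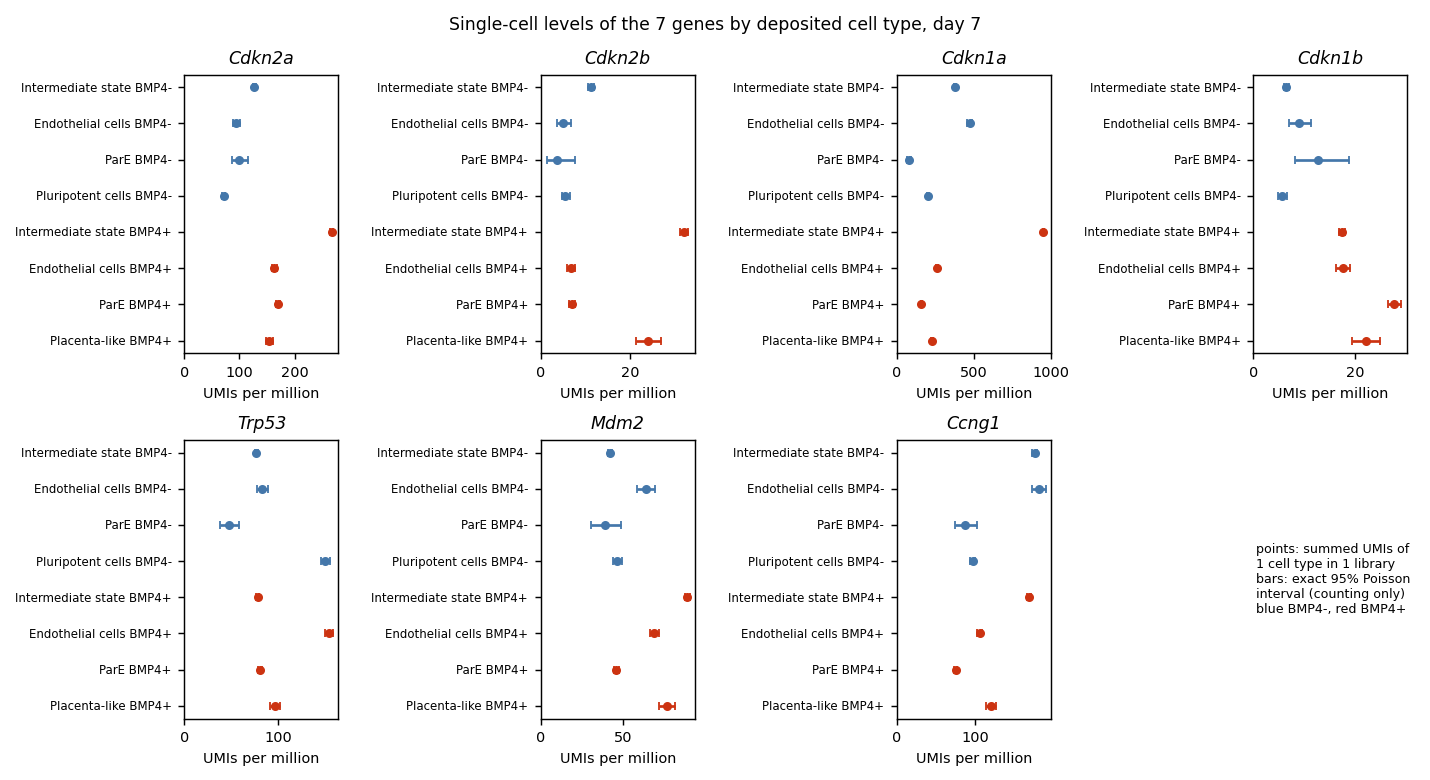
Level of each gene in CPM over the summed cells of each deposited cell type, BMP4- in blue and BMP4+ in red, with exact 95% Poisson intervals that cover counting error only. The intermediate state with BMP4 is highest for *Cdkn2a*, *Cdkn2b*, *Cdkn1a* and *Mdm2* (267, 32.0, 954 and 88.7 CPM), and *Trp53* is highest in BMP4+ endothelial and BMP4- pluripotent cells.

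Differences between groups of cells were taken as log2(CPM + 1), which makes those of scarce genes smaller than their plain ratios. Between samples, 5 of the 7 genes were past the fold in the intermediate state, where 32.4% of genes at 10 CPM or more were. The ratios with BMP4 to without were 2.11 for *Cdkn2a*, 2.85 for *Cdkn2b*, 2.53 for *Cdkn1a*, 2.69 for *Cdkn1b* and 2.12 for *Mdm2*, and 1.02 for *Trp53* and 0.959 for *Ccng1*. The median gene was itself higher by 0.52 on the log2 scale in this comparison, and all 5 differences lay between 1.07 and 1.43 on that scale. The deeper sample is the BMP4+ one, and after thinning every cell to 4000 UMIs the 5 ratios were 2.09, 2.80, 2.57, 3.04 and 2.14. The fibroblast markers summed to 863 CPM with BMP4 and 228 without in this state, so the cells under the name differ in more than these genes.

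Endothelial and ParE cells gave fewer changes. *Cdkn2b*, under 10 CPM in both samples, was not tested in either type. In endothelial cells 27.6% of genes were past the fold and none of the 6 members tested, with *Cdkn1a* at a ratio of 0.547 (0.480 after thinning, past the fold). In ParE 29.8% were and 1 of the 6, *Cdkn1b* (ratio 2.18), with *Cdkn1a* at 1.99 and *Trp53* at 1.71 (2.19 after thinning, past the fold). The medians of all genes were 0.52 and 0.56. Regulators of p53 were higher by the fold with BMP4 for 3 of 7 tested in the intermediate state. In endothelial cells 5 of 10 were, and in ParE 6 of 10. Of the regulators of the *Cdkn2a* locus 4, 6 and 7 of 14 were, with *Ezh2* at 166 against 45.0 CPM in endothelial cells. Of the 6 mitotic genes 0, 3 and 4 were, with medians of -0.45, 0.92 and 1.12. No gene of these lists was lower by the fold, unlike in bulk at day 7. The fall of *Trp53* RNA with BMP4 in bulk JGES at day 7 was not found within the intermediate state (ratio 1.02), in endothelial cells (1.86) or in ParE (1.71). Over all cells of each sample, whatever their type, *Trp53* was 89.3 CPM with BMP4 and 94.4 without. A fall of the bulk size, from 90.2 to 38.8 FPKM, was thus not found over all cells either. Pluripotent cells, with 150 CPM, were 1825 of the 8685 cells without BMP4, and no cell of the BMP4+ sample had that label. The part of these cells in the bulk fall was not tested.

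Within the BMP4+ sample, the other types were set against the intermediate state. In endothelial cells 23.8% of genes were past the fold and 2 of the 7, *Cdkn2b* (fell by 2.10) and *Cdkn1a* (fell by 1.88), with *Trp53* at 0.97. In ParE 26.1% were and 3 of the 7, *Cdkn2b* (fell by 2.06), *Cdkn1a* (fell by 2.60) and *Ccng1* (fell by 1.16). In placenta-like cells 25.0% were and 1 of the 7, *Cdkn1a*, which fell by 2.06. The secretory list ran with them, 6 of 7 genes lower in each of these types, with medians of -2.38, -2.83 and -3.39, whereas 5, 6 and 6 of the 6 mitotic genes were higher. Of the p53 targets tested, 5 of 21, 10 of 22 and 3 of 21 were lower and 0, 1 and 1 higher.

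The same contrasts were taken without BMP4. *Cdkn1b* was under 10 CPM and so not tested in endothelial and pluripotent cells. In endothelial cells 9.83% of genes were past the fold and 1 of the 6 members tested, *Cdkn2b* at -1.03, which was -0.80 after thinning. In ParE, with 142 cells, 17.7% were and 3 of the 7, *Cdkn1a* (fell by 2.24), *Cdkn2b* (fell by 1.38) and *Ccng1* (fell by 1.00). *Cdkn2b* rests there on 7 UMIs, with a UMI in 4.93% of the cells, and no UMI was left after thinning. Thinning also took *Ccng1* to -0.99, inside the fold, and *Trp53* from -0.69 to -1.08, past it. In pluripotent cells 21.8% were and none of the 6, with *Trp53* at 0.96, just past the fold after thinning. *Cdkn2b* was at -0.91 there, although its plain ratio of CPM was 0.492, the one tested member for which the added 1 CPM decided the side of the fold.

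The distribution of UMIs over cells was read as well. In the BMP4+ intermediate state the tenth of cells with the most *Cdkn1a* UMIs held 39.0% of them, and for *Cdkn2b* that share was 59.5%. Such a share also depends on cell depth and on how scarce a gene is. No share expected from counting alone was taken, so unevenness of expression was not tested. After thinning to 4000 UMIs, 78.0% of these cells had a *Cdkn1a* UMI, 47.4% a *Cdkn2a* UMI and 10.3% a *Cdkn2b* UMI, against 62.0%, 34.9% and 4.12% in the intermediate state without BMP4. Unthinned, the shares were 93.2%, 79.5% and 34.3% against 84.5%, 66.4% and 11.4%, at median depths of 19594 and 11892 UMIs. No cell type that should lack these genes was in the data, so the share that free RNA gives was not measured, but the *Cdkn1a* share differed between types of the same sample, with 28.5% in BMP4+ ParE cells.

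Cells were also ordered by a per-cell sum of 6 mitotic genes (*Mki67*, *Top2a*, *Cdk1*, *Ccnb1*, *Cenpf* and *Ube2c*) after thinning, and those with 3 or more such UMIs were set against those with 0. This is a range of a score and not a cell type. In the BMP4+ intermediate state 14.0% of cells had 3 or more (996 cells, against 5009 with 0), in BMP4+ ParE 59.2%, in placenta-like cells 50.6%, in the BMP4- intermediate state 29.1% and in pluripotent cells 52.8%. The share was 40.1% in BMP4+ and 28.4% in BMP4- endothelial cells, and 38.0% in BMP4- ParE. It was thus higher with BMP4 in endothelial cells and ParE and lower in the intermediate state.

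In the BMP4+ intermediate state, mitotic cells had 11.5 CPM of *Cdkn2b* (8.45 to 15.4) and the others 36.5 (33.9 to 39.3), a ratio of 0.316. The ratios were 0.639 for *Cdkn2a*, 0.670 for *Cdkn1a*, 0.872 for *Mdm2* and 0.839 for *Ccng1*, and 1.78 for *Trp53* (119 against 67.0 CPM) and 1.96 for *Cdkn1b* (34.9 against 17.8 CPM). RNA of p21 was thus lower and RNA of its relative p27 higher in the cells with mitotic UMIs. In placenta-like cells *Cdkn2a* was 106 against 277 CPM (ratio 0.385) and *Cdkn1a* 162 against 396 CPM (ratio 0.408). In ParE the ratio of *Cdkn1a* was 0.647 and that of *Cdkn1b* 1.86. In BMP4+ endothelial cells *Cdkn2a* (0.917) and *Cdkn1a* (0.959) had overlapping intervals in both ranges, and *Trp53* (1.35) was higher in the mitotic one.

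Without BMP4 the lower level of *Cdkn1a* in cells with 3 or more mitotic UMIs was not seen in the intermediate state. There *Cdkn1a* was 391 CPM in these cells (377 to 406) and 364 in those with 0 (351 to 376), a ratio of 1.08. With 2 or more mitotic UMIs the ratio was 1.06 and the intervals overlapped. *Cdkn2b* (0.482), *Cdkn2a* (0.841) and *Cdkn1b* (1.71) kept the sides they had with BMP4. In pluripotent cells *Cdkn2a* (0.958), *Trp53* (1.03) and *Cdkn1a* (0.864) had overlapping intervals in both ranges, as did *Cdkn2a* (1.13) and *Cdkn1a* (1.19) in endothelial cells. Between samples, the cells of the intermediate state with 0 mitotic UMIs had 1026 CPM of *Cdkn1a* with BMP4 and 364 without, and those with 3 or more had 687 and 391, so the higher level with BMP4 was present in both ranges.

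**Figure D5:**
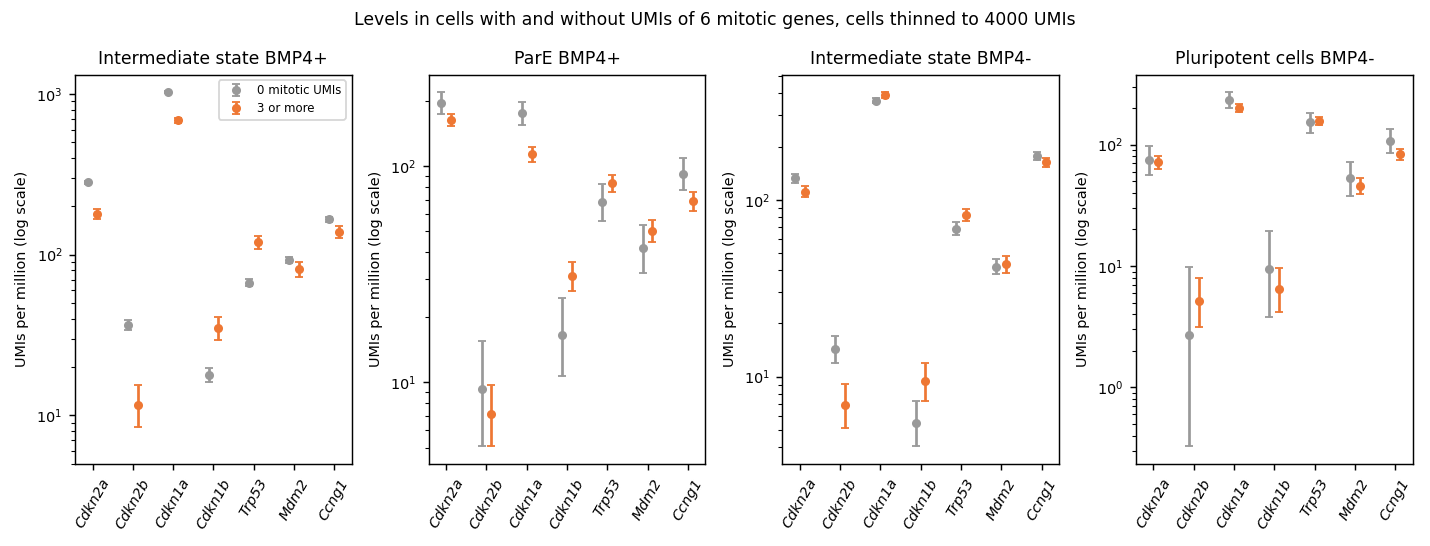
Level of each gene in CPM (log scale) in cells with 0 (grey) and with 3 or more (orange) UMIs of 6 mitotic genes, in 4 groups of cells thinned to 4000 UMIs, with exact 95% Poisson intervals. *Cdkn2b*, *Cdkn2a* and *Cdkn1a* are lower and *Cdkn1b* and *Trp53* higher in the mitotic range of the BMP4+ intermediate state.

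The patterns of the 7 genes were compared across the 17 libraries of the time course. Pearson's r of log2(FPKM + 1) was 0.87 between *Cdkn2a* and *Cdkn2b*, 0.78 between *Mdm2* and *Ccng1* and 0.70 between *Cdkn2b* and *Mdm2*, and was negative between *Cdkn1a* and *Cdkn1b* (-0.87) and between *Cdkn2a* and *Trp53* (-0.73). *Trp53* RNA had an r of -0.14 with *Mdm2*, -0.06 with *Ccng1* and -0.59 with *Cdkn1a*. These values describe libraries that share cultures, a day 0 sample and one normalization, and are not tests.

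The genes whose pattern over these libraries was most like each member were taken from 8962 genes with a mean of at least 5 FPKM. For *Cdkn2a* they were *Ctsl* (r = 0.980), *Cpq*, *Ctsb*, *Pla2g7* and *Chil1*, of which *Ctsl* and *Ctsb* encode the lysosomal proteases cathepsin L and B. For *Cdkn2b* they were *Gas1* (r = 0.956), *Hmox1*, *Osbpl9*, *Ypel5* and *Gng12*, *Gas1* being a gene of growth-arrested fibroblasts. For *Cdkn1a* they were *Hist1h2bc* (r = 0.910), *Nab1*, *Hist1h2bg*, *Rchy1* and *Emc3*, and for *Cdkn1b* *Zcchc3* (r = 0.937), *Ckap5*, *Pkn2*, *Dhx57* and *Ankrd27*. For *Trp53* they were *Kpna2* (r = 0.950), *Chaf1a*, *Cdc20*, *Anp32e* and *Asf1b*, which includes the chromatin assembly factors *Chaf1a* and *Asf1b* and the mitotic activator *Cdc20*. For *Mdm2* they were *Tnks1bp1* (r = 0.946), *Rtn4*, *Arhgef40*, *Cast* and *Lox*. For *Ccng1* they were *Ccnd2* (r = 0.947), the gene of cyclin D2, *Zmpste24*, *Hp1bp3*, *Hic1* and *Fbn1*. None of the 7 was among the 5 genes most like another.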

How the data were processed

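The members and gene lists were chosen with earlier results of these data known. Bulk FPKM values were deposited by the authors, made with Trim Galore 0.6.4, HISAT2 2.2.1 and StringTie 2.2.1 on mm10; no read counts or depths accompany them. The authors deposited single-cell UMI counts with cell type labels (STAR and Scanpy are named in the submitters' notes). The MACS peak scores were deposited by the authors (Bowtie2 2.4.5, SAMtools 1.16.1, MACS 1.4.2), who merged Cut&Tag replicates before calling.

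Here differences of log2(FPKM + 1) were computed within each table (Python 3.11.15, pandas 2.3.3, numpy 2.4.6, SciPy 1.17.1, figures with matplotlib 3.10.9), tested on simulated data, among genes at 1 FPKM or more in either library. UMIs were summed per cell type as CPM and compared as log2(CPM + 1), for genes at 10 CPM or more in either group, and cells were thinned to 4000 UMIs for shares and mitotic ranges, and no cell had fewer. Doublets were not called, and 10749 single-cell columns of no sample were not used. Named genes were the 7 members, up to 3 list genes with the largest rise and fall, and the 5 most similar genes per member; a list gene that the rule named is not reported here. Peaks, RefSeq sequences and gene models share the mm10 (GRCm38.p6) build. Alternatives were median ratio scaling, pseudocount 0.1, a fold of 1.5, filters, peak windows, thinning and, chosen after seeing the data, transcript length classes.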

Additional observations from a re-analysis of the deposited data

Results flagged for a closer look

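The response of *Cdkn2b* to BMP4 at day 7 went in opposite directions past the fold in 2 factor sets. The log2 difference was -1.07 in JGE (68.2 to 32.0 FPKM) and 1.10 in JGESO (10.6 to 23.9 FPKM). Each rests on 1 library per arm, and the difference between the sets was not tested.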

How the results depend on the processing

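Libraries of the same day were compared day by day, and a paired model over the 4 days was not run. No member's difference changed sign past the fold under any alternative run. The number of members past the fold in JGES at day 5 was 0 in the main setting and 2 with a pseudocount of 0.1, with median ratio scaling and against the length class, and without BMP4 from day 0 to day 7 it was 1 and then 2 under the last pair of these settings. At a fold of 1.5, with the share of all genes past it in brackets, the counts included 1 for BMP4 in JGES at day 3 (33.2%), 4 at day 5 (42.9%), 3 for BMP4- day 7 from day 0 (53.7%), 4 for BMP4 in JGE (24.6%) and 2 in JGEO (14.6%). They also included 2, 3 and 4 for SALL4-delN12 minus SALL4-WT at days 1, 9 and 11 (22.0%, 25.6% and 31.0%) and 5 for SALL4-delN12 day 11 from day 1 (31.6%). Not every count that changed is listed. At this fold *Cdkn2b* also passed for BMP4 in JGES at day 7, and *Trp53* for JGES minus JGE. After thinning, 1 member was past the fold in endothelial and 2 in ParE cells between samples, 0 in endothelial, 2 in ParE and 1 in pluripotent cells against the intermediate state without BMP4; in that ParE comparison *Ccng1* was lost and *Trp53* gained, and *Cdkn2b* had no UMI left. Of 175 member differences in bulk, 169 stayed on their side of the fold with scaling, 166 against the length class and 171 with the smaller pseudocount, and the counts of start sites with a peak did not change within 1 kb. At scores of at least 100 they changed in 1 list of 13, SALL4 with SALL4-delN12, from 7 to 5. Ranking by Spearman's rho changed the list of similar genes for 6 of the 7 members. FPKM tables without counts give no depth, so precision at low FPKM is unknown, and single-cell intervals do not cover differences between cultures.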
